A study of Mus musculus with 18 samples.

Results

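The transcription factor genes Tcf7, Lef1, Bach2, Foxp1, Satb1, Bcl6, Bcl11b and Runx1 were described in CD8+ T cells sorted by surface 41BB (CD137, the costimulatory receptor encoded by Tnfrsf9). These 8 genes were named as factors of naive and memory T cells, and the choice was made with earlier results of these data known. They were found by Ensembl identifier, through GENCODE M21 symbols, among the 55487 genes of the count table. All 8 passed the filter on low counts and belonged to the 13150 genes tested.

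The cells came from spleen and lymph nodes of wild-type C57BL/6J mice, and total RNA was sequenced in 6 groups of 3 libraries, 1 from each of experiments 1, 2 and 3. The groups were 41BB+ cells and 41BB- cells at 0 h, without activation, and the same populations after 24 h and 72 h of ex vivo stimulation through CD3 and CD28 with antibody-coated Dynabeads. The sources used here do not give the age of the mice or say whether a library came from 1 animal or a pool, so the p-values measure the spread between these libraries. Library totals ran between 3085241 and 4239795 counts. At 0 h, Tnfrsf9 had 389 ± 28 CPM in 41BB+ cells and 6.74 ± 1.7 CPM in 41BB- cells (CPM, counts scaled to a library total of 1000000, with SD, n = 3 each). At 24 h Tnfrsf9 was lower in 41BB+ cells, with 138 ± 9.9 CPM against 183 ± 11 CPM in 41BB- cells. It was also lower in 41BB+ cells at 72 h, with 21.2 ± 11 CPM against 52.4 ± 8.7 CPM in 41BB- cells. Cd8a, a chain of the CD8 coreceptor, was present in every group at mean levels between 361 and 638 CPM.

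Naive and memory CD8+ T cells keep a set of transcription factors that hold them quiescent and able to renew, and effector differentiation is accompanied by a loss of several of them. TCF-1, encoded by Tcf7, and its family member Lef1 bind DNA through an HMG box and can act with beta-catenin or with Groucho corepressors. Bach2 competes with AP-1 factors for their sites, Foxp1 restrains the activation of naive T cells, Bcl6 is a repressor that opposes Blimp-1 (Prdm1), Satb1 organises chromatin, Bcl11b maintains T cell identity and Runx1 binds DNA with its partner Cbfb.

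Before stimulation, 41BB+ cells had less RNA of Lef1, Satb1, Bcl11b and Foxp1 than 41BB- cells, and more of Bcl6. At 24 h none of the 8 genes passed the test between the populations. At 72 h Lef1, Satb1, Foxp1, Bach2, Tcf7 and Bcl6 were all higher in 41BB+ cells. The median log2 fold change of the 8 genes (41BB+ over 41BB-) was -0.67 at 0 h, -0.19 at 24 h and 0.66 at 72 h, beside medians of 0.01, 0.02 and -0.04 over all genes tested at those times.

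In counts, 4 of the 8 genes were lower and 1 was higher in 41BB+ cells at 0 h, where 17.3% of all genes tested were called lower, 22.2% higher and 39.5% in either direction. At 24 h the count was 0 by edgeR, DESeq2 and limma voom, where 2.75%, 5.05% and 4.18% of all genes passed by these tools. At that time 3 members (Lef1, Bach2 and Bcl6) had an unadjusted p under 0.05 by edgeR, as did 12.4% of all genes. Bach2 was called at 24 h without the filter on low counts, where 1.28% of all genes passed, and in a fit of the compared groups alone, where 4.33% did. At 72 h 6 of 8 were higher, where 6.71% of all genes were called higher and 18.9% passed in either direction. By non-overlap of the libraries, 7 of 8 genes were separated at 0 h, 3 of 8 at 24 h and 7 of 8 at 72 h, beside 49.9%, 20.5% and 31.8% of all genes tested. In a fit that compared the populations within each experiment and time (experiment as a block within each time), 8 members passed at 0 h, 1 at 24 h and 7 at 72 h, beside 41.7%, 4.39% and 22.6% of all genes in that fit. In these bulk libraries, fewer cells that express a gene and less of its RNA per cell cannot be told apart.

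**Figure D1:**
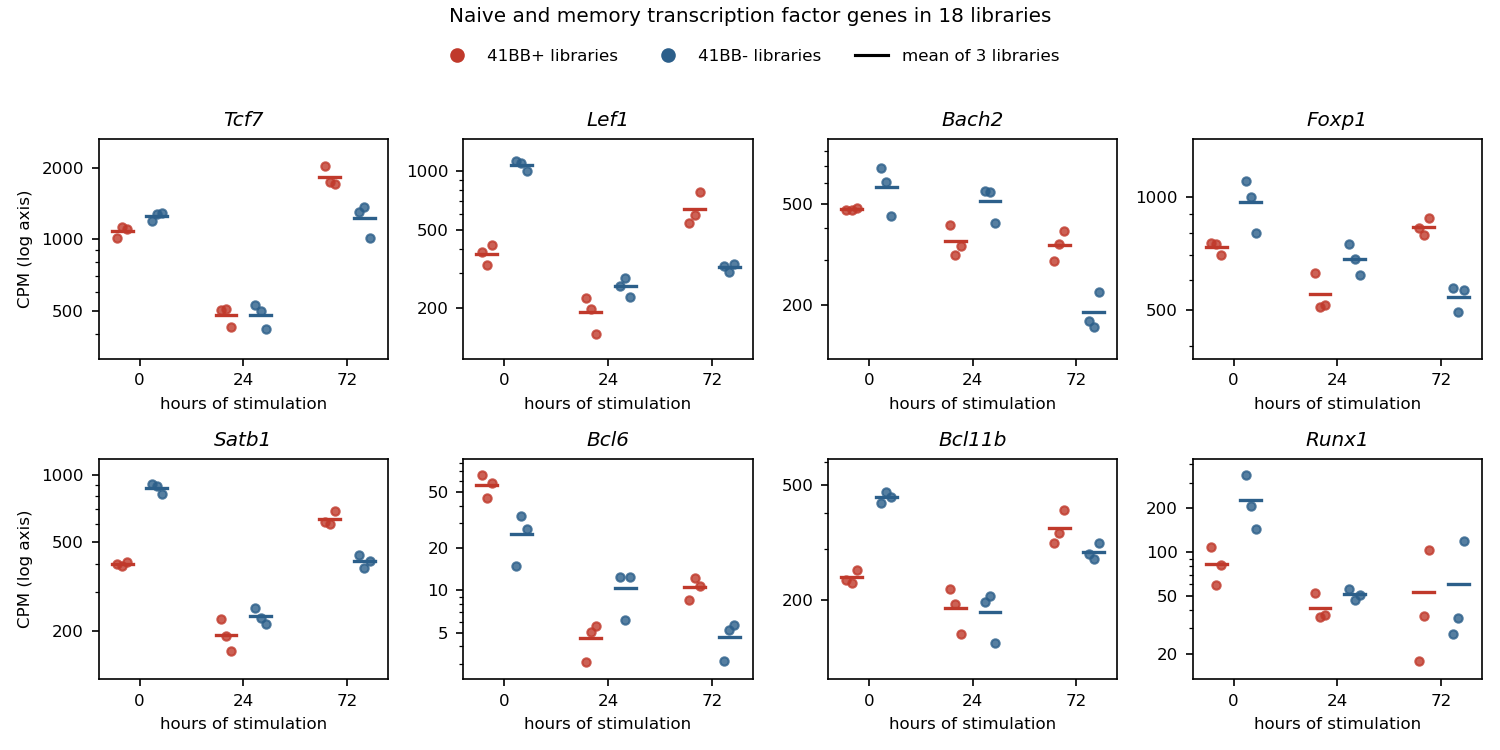
CPM of the 8 genes in each library on log axes (points) and the mean of 3 libraries (bars), 41BB+ to the left of 41BB- at 0, 24 and 72 h of stimulation. Lef1 and Satb1 show the 41BB+ libraries below the 41BB- libraries at 0 h and above them at 72 h.

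Lef1 lies on GRCm38 at chr3:131110471-131224356 on the plus strand, Satb1 at chr17:51736187-51833290 and Bcl11b at chr12:107910403-108003602, both on the minus strand. These were the members with the closest patterns, with Pearson r of log2 CPM over the 18 libraries of 0.97 for Lef1 with Satb1, 0.95 for Satb1 with Bcl11b and 0.92 for Lef1 with Bcl11b. Because they varied together, their promoter windows of 300 bases around the most upstream RefSeq start are shown (RefSeq, GRCm38.p6), with matches to CTTTGA, the core of the TCF/LEF motif, in capitals on either strand. The windows lie at chr3:131110047-131110346 on the plus strand, chr17:51833241-51833540 on the minus strand and chr12:108003365-108003664 on the minus strand.
Lef1: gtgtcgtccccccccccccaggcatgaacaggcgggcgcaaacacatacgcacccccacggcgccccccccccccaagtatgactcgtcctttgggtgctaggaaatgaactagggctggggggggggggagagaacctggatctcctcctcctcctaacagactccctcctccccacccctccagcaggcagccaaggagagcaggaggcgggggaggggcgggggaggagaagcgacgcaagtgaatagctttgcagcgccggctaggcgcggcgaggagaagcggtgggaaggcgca
Satb1: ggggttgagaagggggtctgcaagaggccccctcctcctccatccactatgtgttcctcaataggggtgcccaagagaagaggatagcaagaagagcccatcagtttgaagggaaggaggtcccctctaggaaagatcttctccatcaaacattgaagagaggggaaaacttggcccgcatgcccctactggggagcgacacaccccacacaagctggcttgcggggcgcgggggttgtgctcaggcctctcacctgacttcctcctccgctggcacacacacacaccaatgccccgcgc
Bcl11b: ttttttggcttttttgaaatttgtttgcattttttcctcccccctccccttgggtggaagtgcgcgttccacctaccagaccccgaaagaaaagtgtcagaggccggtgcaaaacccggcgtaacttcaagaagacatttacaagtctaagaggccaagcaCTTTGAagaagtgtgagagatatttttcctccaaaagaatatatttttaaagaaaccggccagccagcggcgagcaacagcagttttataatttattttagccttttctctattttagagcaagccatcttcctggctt
The letters CTTTGA or TCAAAG were found in the Bcl11b window, with the first base 89 before the start, and not in the windows of Lef1 and Satb1 shown. RefSeq gives 4 windows for Lef1, 5 for Satb1 and 1 for Bcl11b. The window of the last Lef1 start, at chr3:131156044-131156343, held 2 matches, and the other windows of Lef1 and Satb1 held none. They were present in 16.0% of all 32851 RefSeq promoter windows of that length, and a match describes letters in the window, not a bound site. Cores of the RUNX motif (TGTGGT, in 16.8% of all windows), the forkhead motif (TGTTTAC, 3.65%), the motif of Bach and AP-1 factors (TGACTCA, 5.20%) and that of Bcl6 and STAT factors (TTCNNNGAA, 8.30%) were searched on both strands as well, and none of the windows of these genes held them.

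Lef1 had 385, 332 and 416 CPM in 41BB+ cells at 0 h, against 1126, 1095 and 994 CPM in 41BB- cells. Every 41BB+ library lay below every 41BB- library, and the level was 2.86-fold lower in 41BB+ cells (log2 fold change -1.52, SE 0.14, edgeR adjusted p = 1.63e-09). At 24 h the values were 224, 197 and 146 CPM in 41BB+ cells, against 258, 285 and 228 CPM in 41BB- cells. These groups did not overlap either, yet the difference did not pass the test (log2 fold change -0.33, SE 0.14, edgeR adjusted p = 0.301). At 72 h Lef1 had 544, 598 and 777 CPM in 41BB+ cells, against 328, 305 and 333 CPM in 41BB- cells. The order of the populations was now the opposite of that at 0 h, with all 41BB+ libraries above all 41BB- libraries and a level 2.04-fold higher (log2 fold change 1.03, SE 0.14, edgeR adjusted p = 7.23e-06). By group mean, Lef1 was highest in 41BB- cells at 0 h, then in 41BB+ cells at 72 h and 0 h, 41BB- cells at 72 h and 24 h, and 41BB+ cells at 24 h. Among neighbours in that order, only 41BB+ cells at 0 h and 41BB- cells at 72 h overlapped.

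Satb1 had 400, 390 and 406 CPM in 41BB+ cells at 0 h, against 906, 893 and 823 CPM in 41BB- cells. The level was 2.21-fold lower in 41BB+ cells, with no overlap (log2 fold change -1.14, SE 0.11, edgeR adjusted p = 1.61e-09). At 72 h it had 613, 602 and 689 CPM in 41BB+ cells, against 436, 384 and 412 CPM in 41BB- cells. All 41BB+ libraries were the higher ones there, by 1.58-fold (log2 fold change 0.66, SE 0.11, edgeR adjusted p = 6.36e-05). At 24 h both populations were at their lowest, with 226, 191 and 163 CPM in 41BB+ cells, against 254, 230 and 216 CPM in 41BB- cells, and the ranges overlapped (log2 fold change -0.16, SE 0.11, edgeR adjusted p = 0.644). By group mean Satb1 was highest in 41BB- cells at 0 h, then in 41BB+ cells at 72 h, and 41BB- cells at 72 h overlapped 41BB+ cells at 0 h in the middle of the order.

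Bcl11b had 235, 229 and 255 CPM in 41BB+ cells at 0 h, against 433, 475 and 455 CPM in 41BB- cells. The 41BB+ libraries were all lower, by 1.91-fold (log2 fold change -0.93, SE 0.14, edgeR adjusted p = 2.52e-06). At 24 h it had 218, 194 and 152 CPM in 41BB+ cells, against 197, 206 and 142 CPM in 41BB- cells, which overlapped. At 72 h it had 316, 342 and 410 CPM in 41BB+ cells, against 290, 278 and 315 CPM in 41BB- cells. The lowest 41BB+ library stood just above the highest 41BB- library at that time, and the difference did not pass the test (log2 fold change 0.31, SE 0.13, edgeR adjusted p = 0.111). With the experiment as a block within each time it passed (log2 fold change 0.30, edgeR adjusted p = 0.0165), as it did without the 41BB+ library of experiment 1 (log2 fold change 0.45, edgeR adjusted p = 0.0326). The order of the group means ran down through 41BB- cells at 0 h, 41BB+ cells at 72 h, 41BB- cells at 72 h and 41BB+ cells at 0 h without overlap between neighbours, and the groups at 24 h, which overlapped each other, were lowest.

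Tcf7, at chr11:52252371-52283014 on the minus strand, was the member with the highest level per length in every group. By TPM, counts per length over the union of exons scaled to the same total, Tcf7 made up 66.2%, 57.7% and 73.5% of the summed level of the 8 genes in 41BB+ cells at 0, 24 and 72 h, and 56.1%, 51.8% and 74.5% in 41BB- cells. By the length of the longest transcript the shares were lower, between 39.8% and 62.3%, and Tcf7 remained first in all 6 groups, whereas the order of the other members depended on the length used.

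In CPM, Tcf7 had 1015, 1125 and 1103 in 41BB+ cells at 0 h, against 1198, 1284 and 1293 in 41BB- cells. The groups did not overlap, but the 1.17-fold lower level in 41BB+ cells did not pass the test (log2 fold change -0.23, SE 0.11, edgeR adjusted p = 0.114). With the experiment as a block within each time the same log2 fold change of -0.23 passed (edgeR adjusted p = 0.0263). At 24 h Tcf7 had 503, 511 and 428 CPM in 41BB+ cells, against 528, 500 and 418 CPM in 41BB- cells, and these ranges overlapped (log2 fold change 0.11, SE 0.12, edgeR adjusted p = 0.804). By TPM it had 110 ± 3.3 in 41BB+ cells and 135 ± 14 in 41BB- cells at 24 h. At 72 h it had 2051, 1751 and 1708 CPM in 41BB+ cells, against 1309, 1369 and 1016 CPM in 41BB- cells. The 41BB+ libraries at 72 h held the highest Tcf7 levels of all 18 libraries, 1.53-fold above 41BB- cells (log2 fold change 0.61, SE 0.11, edgeR adjusted p = 0.000321). By group mean, 41BB- cells at 0 h, 41BB- cells at 72 h and 41BB+ cells at 0 h followed, and neighbours among these 3 overlapped. The groups at 24 h stood apart below them and overlapped each other.

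Foxp1, at chr6:98925338-99522721 on the minus strand, varied least among the 8 genes, with a highest group mean 1.79 times the lowest. It had 755, 747 and 702 CPM in 41BB+ cells at 0 h, against 1104, 998 and 801 CPM in 41BB- cells. The 41BB+ libraries were all lower, by 1.33-fold (log2 fold change -0.41, SE 0.11, edgeR adjusted p = 0.00420). At 24 h Foxp1 had 627, 508 and 514 CPM in 41BB+ cells, against 747, 684 and 618 CPM in 41BB- cells. These ranges overlapped in 1 library of each population (log2 fold change -0.20, SE 0.11, edgeR adjusted p = 0.517). At 72 h the values were 825, 793 and 877 CPM in 41BB+ cells, against 570, 492 and 563 CPM in 41BB- cells, without overlap and 1.57-fold higher in 41BB+ cells (log2 fold change 0.65, SE 0.11, edgeR adjusted p = 0.000118). Over the 6 groups its mean was highest in 41BB- cells at 0 h, at 968 ± 154 CPM, and lowest in 41BB- cells at 72 h, at 542 ± 43 CPM, and of the neighbours in the order only 41BB+ cells at 72 h and at 0 h did not overlap.

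Bach2, at chr4:32238804-32586108 on the plus strand, had 472, 473 and 481 CPM in 41BB+ cells at 0 h, against 691, 608 and 448 CPM in 41BB- cells. The 41BB- library of experiment 3 lay below all 41BB+ libraries, and the difference did not pass the test (log2 fold change -0.30, SE 0.15, edgeR adjusted p = 0.114). It passed without that library (log2 fold change -0.47, edgeR adjusted p = 0.0139) and with the experiment as a block within each time (log2 fold change -0.28, edgeR adjusted p = 0.0371). At 24 h Bach2 had 411, 316 and 340 CPM in 41BB+ cells, against 558, 557 and 419 CPM in 41BB- cells, without overlap (log2 fold change -0.41, SE 0.15, edgeR adjusted p = 0.189). It was the member that passed at 24 h in the block within each time (edgeR adjusted p = 0.0266). At 72 h it had 299, 347 and 391 CPM in 41BB+ cells, against 174, 165 and 225 CPM in 41BB- cells. The 41BB+ libraries were all higher, by 1.88-fold (log2 fold change 0.91, SE 0.15, edgeR adjusted p = 0.000144), and 41BB- cells at 72 h formed the lowest group of all 6. The highest means, those of 41BB- cells at 0 h and 24 h and of 41BB+ cells at 0 h, overlapped from neighbour to neighbour and stood apart from the groups below them.

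Bcl6, at chr16:23965052-23988852 on the minus strand, was the one member higher in 41BB+ cells before stimulation. The window of its most upstream RefSeq start, at chr16:23988803-23989102 on the minus strand, is shown because this gene differed in direction from the other called members at 0 h. Capitals mark a match to TTCNNNGAA, the letters of the Bcl6 and STAT motif, with its first base 118 before the start.
Bcl6: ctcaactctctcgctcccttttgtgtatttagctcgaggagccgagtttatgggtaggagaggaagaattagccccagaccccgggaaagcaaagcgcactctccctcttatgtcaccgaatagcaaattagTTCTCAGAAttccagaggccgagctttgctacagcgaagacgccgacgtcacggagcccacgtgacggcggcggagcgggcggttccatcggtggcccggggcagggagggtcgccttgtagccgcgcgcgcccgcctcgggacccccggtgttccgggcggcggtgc
The other motifs searched had no match in that window. The window of the other RefSeq start of Bcl6, at chr16:23981234-23981533, held 3 matches to TTCNNNGAA and 1 to CTTTGA.

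Bcl6 had 66.3, 45.2 and 57.6 CPM in 41BB+ cells at 0 h, against 14.9, 33.7 and 27.4 CPM in 41BB- cells. Every 41BB+ library was above every 41BB- library (log2 fold change 1.14, SE 0.28, edgeR adjusted p = 0.00170). At 24 h Bcl6 had 3.12, 5.04 and 5.62 CPM in 41BB+ cells, against 12.4, 6.15 and 12.5 CPM in 41BB- cells. The 41BB+ libraries were now all the lower ones, with few counts behind each value, and the difference did not pass the test (log2 fold change -1.03, SE 0.35, edgeR adjusted p = 0.142). At 72 h the values were 8.51, 12.2 and 10.8 CPM in 41BB+ cells, against 3.16, 5.23 and 5.66 CPM in 41BB- cells. The 41BB+ libraries were again above all 41BB- libraries, by 2.28-fold (log2 fold change 1.19, SE 0.35, edgeR adjusted p = 0.0164). That call did not hold without the 41BB+ library of experiment 2 (log2 fold change 1.13, edgeR adjusted p = 0.0522), without the 41BB- library of experiment 1 (log2 fold change 1.03, edgeR adjusted p = 0.0746) or in limma voom (log2 fold change 1.25, adjusted p = 0.102). The mean of 56.4 ± 11 CPM in 41BB+ cells at 0 h was 12.3 times that in 41BB+ cells at 24 h, 4.59 ± 1.3 CPM, the widest span of group means among the members.

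Runx1, at chr16:92601466-92826149 on the minus strand, had libraries that differed within a group more than those of the other members at 0 h and 72 h, relative to the group mean. It had 108, 58.9 and 81.0 CPM in 41BB+ cells at 0 h, against 337, 208 and 143 CPM in 41BB- cells. All 41BB+ libraries were lower, and the library of experiment 1 was the highest in both populations. At 24 h it had 51.9, 35.5 and 36.8 CPM in 41BB+ cells, against 55.2, 47.1 and 50.8 CPM in 41BB- cells, with overlap. At 72 h Runx1 had 17.8, 36.1 and 104 CPM in 41BB+ cells, against 27.4, 34.9 and 119 CPM in 41BB- cells. The library of experiment 3 was the high one in both populations there, and the populations overlapped. In the test across groups Runx1 did not pass at 0 h (log2 fold change -1.49, SE 0.61, edgeR adjusted p = 0.0708), at 24 h (log2 fold change -0.19, SE 0.65, edgeR adjusted p = 0.960) or at 72 h (log2 fold change -0.17, SE 0.63, edgeR adjusted p = 0.899). Within experiments, the log2 ratio of 41BB+ over 41BB- CPM at 0 h was -1.65, -1.82 and -0.82, and with the experiment as a block within each time the 0 h difference passed (log2 fold change -1.44, edgeR adjusted p = 3.86e-09). It also passed at 0 h in DESeq2 (log2 fold change -1.53, adjusted p = 0.0339) and in limma voom (log2 fold change -1.44, adjusted p = 0.0163). Below 41BB- cells at 0 h, which stood apart with 229 ± 99 CPM, each group in the order of means overlapped the next.

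**Figure D2:**
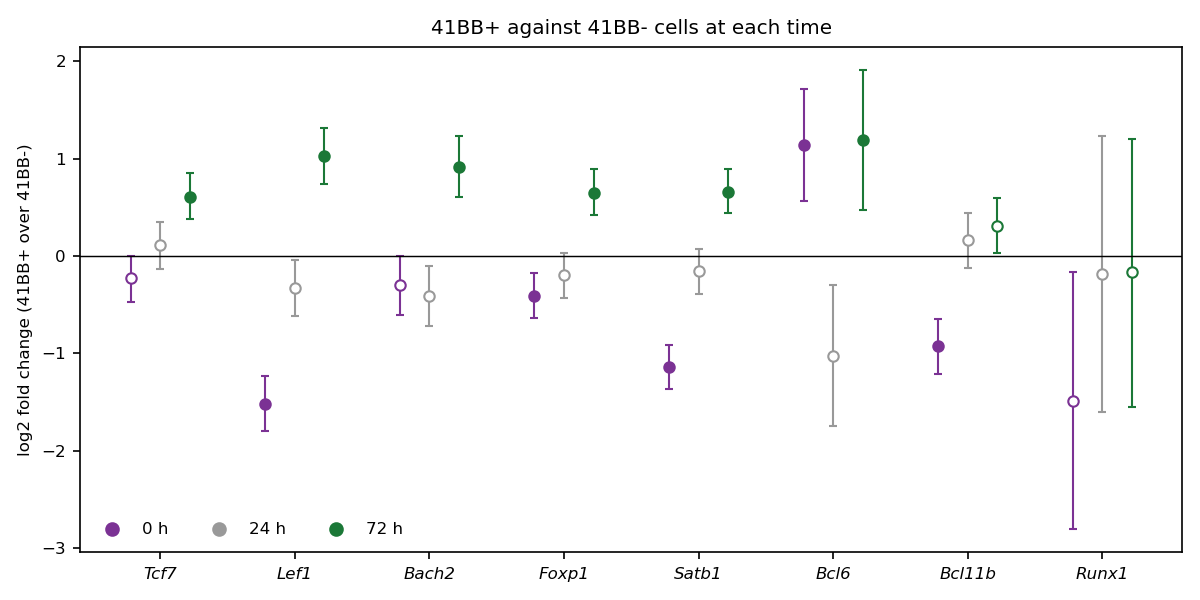
Log2 fold change of 41BB+ over 41BB- cells for the 8 genes at 0, 24 and 72 h, with 95% confidence intervals from the edgeR fit; filled points passed an adjusted p of 0.05. At 0 h 4 filled points lie below 0 and Bcl6 above it, and at 72 h all 6 filled points lie above 0.

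The change with stimulation was then read within each population. In 41BB+ cells, Tcf7, Lef1, Satb1, Foxp1 and Bcl6 fell at 24 h relative to 0 h, 5 of 8 members where 16.5% of all genes were called lower and 34.6% passed in either direction. Bcl6 fell by 3.55 on the log2 scale (SE 0.33, edgeR adjusted p = 1.23e-09), the largest of the changes of the 8 genes in any comparison of 2 groups. Tcf7 fell by 1.12 (SE 0.12, edgeR adjusted p = 1.05e-08), Satb1 by 1.00 (SE 0.11, edgeR adjusted p = 3.35e-08) and Lef1 by 0.95 (SE 0.14, edgeR adjusted p = 5.94e-06). The call for Foxp1 (log2 fold change -0.37, SE 0.11, edgeR adjusted p = 0.0117) did not hold without any 1 of 4 libraries, which were experiments 1 and 2 at 0 h and experiments 2 and 3 at 24 h, with adjusted p between 0.0645 and 0.153. In a fit of those 2 groups alone, all 8 members passed, as did 42.3% of all genes tested in it.

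In 41BB- cells, 7 of 8 members fell at 24 h relative to 0 h, where 27.6% of all genes were called lower and 56.6% passed in either direction. Lef1 fell by 2.14 on the log2 scale (SE 0.14, edgeR adjusted p = 1.27e-12), Satb1 by 1.98 (SE 0.11, edgeR adjusted p = 1.50e-14), Tcf7 by 1.46 (SE 0.12, edgeR adjusted p = 1.86e-11) and Bcl11b by 1.40 (SE 0.14, edgeR adjusted p = 1.27e-09). Bach2, the exception, had 558, 557 and 419 CPM at 24 h, against 691, 608 and 448 CPM at 0 h (log2 fold change -0.26, SE 0.15, edgeR adjusted p = 0.139).

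Between 24 h and 72 h Tcf7, Satb1, Bcl11b and Lef1 rose in both populations by edgeR, while Bcl6, Bach2 and Foxp1 took different courses in them. In 41BB+ cells, 6 of 8 members rose at 72 h relative to 24 h, all but Bach2 and Runx1, where 26.2% of all genes were called higher and 52.5% passed in either direction. Tcf7 rose by 2.00 on the log2 scale (SE 0.12, edgeR adjusted p = 4.86e-14), Lef1 by 1.83 (SE 0.14, edgeR adjusted p = 2.76e-11) and Satb1 by 1.79 (SE 0.11, edgeR adjusted p = 1.37e-13). In 41BB- cells, Tcf7, Satb1, Bcl11b and Lef1 rose and Bach2 and Bcl6 fell, where 22.6% of all genes were called higher, 18.2% lower and 40.8% in either direction. There Tcf7 rose by 1.50 (SE 0.12, edgeR adjusted p = 5.56e-11), Lef1 by 0.47 (SE 0.14, edgeR adjusted p = 0.00747), and Bach2 fell by 1.29 (SE 0.15, edgeR adjusted p = 2.68e-07). The Lef1 call did not hold without experiment 3 at 24 h (log2 fold change 0.32, edgeR adjusted p = 0.112) or at 72 h (log2 fold change 0.39, edgeR adjusted p = 0.0613). By TPM, Lef1 in 41BB- cells had 21.6 ± 3.3 at 24 h and 18.9 ± 0.83 at 72 h, so its direction depended on the scaling. Bcl11b in 41BB- cells rose by 0.84 in the edgeR fit (SE 0.14, edgeR adjusted p = 1.29e-05). By TPM it had 16.5 ± 3.3 at 24 h and 18.6 ± 0.46 at 72 h, so the size of its rise also depended on the scaling. The Bcl6 call (log2 fold change -0.97, SE 0.35, edgeR adjusted p = 0.0280) did not hold without experiment 1 or 3 at 24 h (adjusted p = 0.0855 and 0.0867), without experiment 1 at 72 h (adjusted p = 0.112) or in limma voom (adjusted p = 0.135).

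Over the whole interval, 72 h relative to 0 h, Tcf7, Satb1, Lef1, Bcl11b and Foxp1 rose and Bcl6 fell in 41BB+ cells, where 23.4% of all genes were called in each direction and 46.7% passed in all. By TPM, Foxp1 in 41BB+ cells had 30.5 ± 3.5 at 0 h and 28.2 ± 0.68 at 72 h, so its rise depended on the scaling. In 41BB- cells 7 members fell and none rose, where 21.1% of all genes were called lower and 47.9% passed in either direction. Lef1 rose by 0.88 on the log2 scale in 41BB+ cells (SE 0.14, edgeR adjusted p = 7.16e-06). In 41BB- cells Lef1 fell by 1.66 (SE 0.14, edgeR adjusted p = 1.81e-10). Tcf7 rose by 0.88 in 41BB+ cells (SE 0.12, edgeR adjusted p = 2.94e-07), while in 41BB- cells its log2 fold change was 0.04 (SE 0.11, edgeR adjusted p = 0.794), below 0 with DESeq2's size factors. Bcl6 fell in both, by 2.30 in 41BB+ cells (SE 0.30, edgeR adjusted p = 3.03e-07) and by 2.35 in 41BB- cells (SE 0.33, edgeR adjusted p = 1.27e-06). The fall of Runx1 in 41BB- cells (log2 fold change -1.83, SE 0.62, edgeR adjusted p = 0.0268) did not hold without experiment 1 at 0 h, or without experiment 1 or 2 at 72 h, with adjusted p between 0.0923 and 0.0996. It did not hold either without the filter on low counts (log2 fold change -1.87, edgeR adjusted p = 0.0619) or in a fit of the compared groups alone (log2 fold change -1.86, edgeR adjusted p = 0.104).

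**Figure D3:**
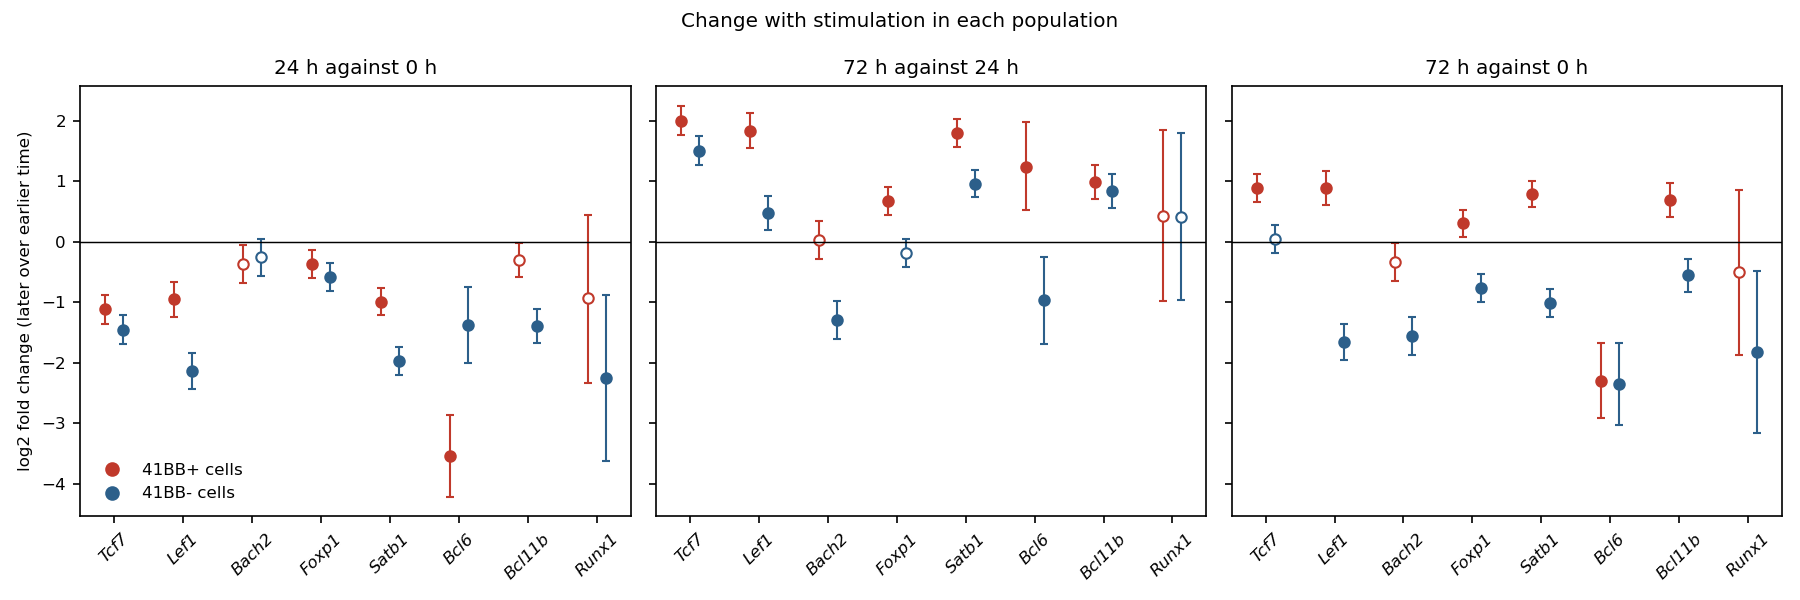
Log2 fold change between times (later over earlier) in 41BB+ cells (red, left) and 41BB- cells (blue, right) with 95% confidence intervals from the edgeR fit; filled points passed an adjusted p of 0.05. In the panel of 72 h against 0 h, Lef1, Satb1, Foxp1 and Bcl11b lie above 0 in 41BB+ cells and below 0 in 41BB- cells.

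The difference between these courses was tested as an interaction, the change in 41BB+ cells minus the change in 41BB- cells. For 72 h against 0 h it passed for 6 of 8 members, all positive, where 17.6% of all genes had a positive call and 40.9% passed in either direction. The value for Lef1 was 2.54 on the log2 scale (SE 0.20, edgeR adjusted p = 5.41e-11), for Satb1 1.81 (SE 0.15, edgeR adjusted p = 1.43e-10), for Bcl11b 1.24 (SE 0.19, edgeR adjusted p = 5.28e-06) and for Bach2 1.22 (SE 0.21, edgeR adjusted p = 5.45e-05). For Foxp1 it was 1.06 and for Tcf7 0.84. With the experiment as a block within each time, where 43.3% of all genes passed, Runx1 was added (1.25, edgeR adjusted p = 3.83e-05), as it was without the 41BB- library of experiment 3 at 72 h (2.38, edgeR adjusted p = 0.0366). For 24 h against 0 h it passed for Lef1, Bcl11b and Satb1 with positive values and for Bcl6 with a negative one (-2.17, SE 0.45, edgeR adjusted p = 0.000616), where 23.0% of all genes passed. With the experiment as a block within each time, 6 members and 26.0% of all genes passed in that comparison, with Tcf7 (0.35, edgeR adjusted p = 0.0313) and Runx1 (1.24, edgeR adjusted p = 8.25e-05) added. For 72 h against 24 h it passed for 6 members, all positive, where 6.10% of all genes had a positive call and 17.5% passed in either direction. Bcl6 had the largest of these values (2.22, SE 0.50, edgeR adjusted p = 0.00201), followed by Lef1 (1.35) and Bach2 (1.32). The value for Tcf7 (0.50, SE 0.16, edgeR adjusted p = 0.0320) did not pass without experiment 3 of 41BB+ cells at 24 h, experiment 1 of 41BB- cells at 24 h or experiment 3 of 41BB- cells at 72 h, with adjusted p between 0.0556 and 0.0619. These comparisons share libraries and are not independent of each other.

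The members did not form 1 pattern over the 18 libraries, which share populations, times and experiments. Beside the close group of Lef1, Satb1 and Bcl11b, Tcf7 had a Pearson r of 0.88 with Satb1 and 0.76 with Lef1, and Foxp1 one of 0.88 with Lef1. Bach2 had r of -0.20 with Tcf7 and 0.05 with Bcl11b, and its highest value within the set was 0.63 with Foxp1. Bcl6 reached at most 0.57, with Bach2.

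**Figure D4:**
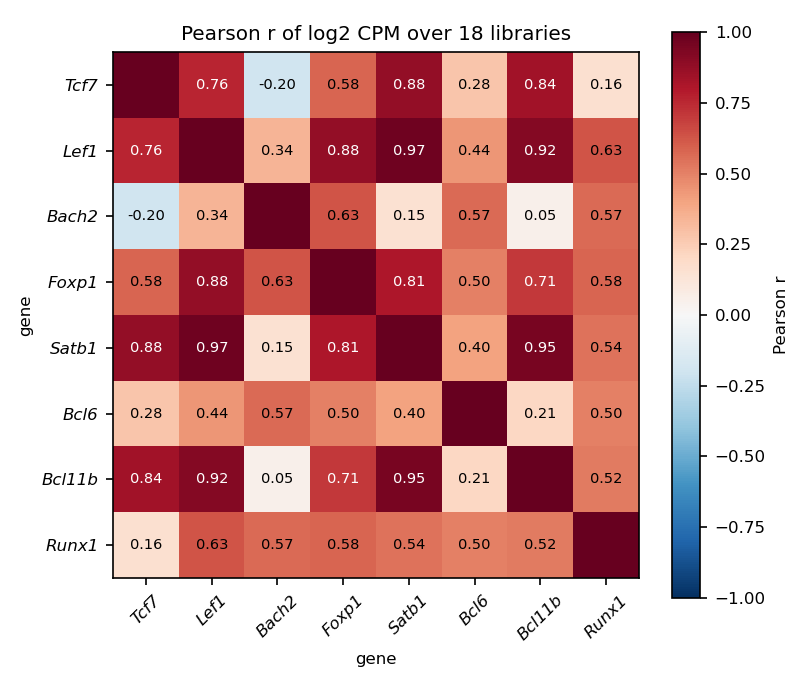
Pearson r between the 8 genes, from log2 CPM over 18 libraries, with the color scale from -1 to 1. Lef1, Satb1 and Bcl11b show values of 0.92 to 0.97 with each other, and Bach2 has values near 0 with Bcl11b, Satb1 and Tcf7.

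Among 9349 genes with a mean of at least 5 CPM, the gene most like Tcf7 over the libraries was Trpc4ap (r 0.973), and the one most like Lef1 was Txnip (r 0.982). For Satb1 it was Prkcq (r 0.990), which encodes protein kinase C theta of T cell receptor signaling, and for Bcl11b it was Plcg1 (r 0.965), which encodes phospholipase C gamma. Foxp1 was closest to Zeb1 (r 0.949), Bach2 to Zhx2 (r 0.937), Runx1 to Rreb1 (r 0.916) and Bcl6 to Tle3 (r 0.912), a Groucho corepressor.

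Other genes of the same programs were read from lists drawn up with earlier results of these data known. Of 15 naive and central memory surface and signaling genes, 9 were lower and 2 higher in 41BB+ cells at 0 h, with a median log2 fold change of -1.43. Over all genes tested, 17.3% were called lower and 22.2% higher at 0 h, and 2.75% passed in either direction at 24 h. At 72 h 6.71% of all genes were called higher and 18.9% passed in either direction. Il7r, the interleukin-7 receptor chain of long-lived T cells, had 47.3 ± 10 CPM in 41BB+ cells and 411 ± 31 CPM in 41BB- cells at 0 h (log2 fold change -3.12, SE 0.24, edgeR adjusted p = 9.79e-09). At 24 h 1 was higher and 3 were lower, and at 72 h 10 were higher and 1 lower, with a median of 0.59. Il7r then had 340 ± 77 CPM in 41BB+ cells and 151 ± 16 CPM in 41BB- cells (log2 fold change 1.20, SE 0.22, edgeR adjusted p = 0.000814). Igfbp4 was the exception at 72 h, with 4.83 ± 2.1 CPM in 41BB+ cells and 16.9 ± 4.3 CPM in 41BB- cells (log2 fold change -1.77, SE 0.33, edgeR adjusted p = 0.000426). Slamf6, a surface receptor found on TCF-1-expressing T cells, was higher in 41BB+ cells at 0 h (log2 fold change 0.34, SE 0.12, edgeR adjusted p = 0.0260), at 24 h (log2 fold change 0.69, SE 0.13, edgeR adjusted p = 0.00221) and at 72 h (log2 fold change 0.85, SE 0.12, edgeR adjusted p = 1.00e-05).

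Of 13 other naive and memory factors, 9 were lower and 3 higher in 41BB+ cells at 0 h, and 6 were higher and 1 lower at 72 h, with median log2 fold changes of -0.59 and 0.48. Of all genes tested, 39.5% passed at 0 h and 18.9% at 72 h in either direction. Klf2, which drives the genes of T cell recirculation, had 60.9 ± 10 CPM in 41BB+ cells and 479 ± 106 CPM in 41BB- cells at 0 h (log2 fold change -2.98, SE 0.35, edgeR adjusted p = 9.65e-06). Its relative Klf3 was lower in 41BB+ cells at 0 h (log2 fold change -1.43, SE 0.15, edgeR adjusted p = 1.13e-08) and at 24 h (log2 fold change -0.88, SE 0.17, edgeR adjusted p = 0.00290), and higher at 72 h (log2 fold change 1.08, SE 0.16, edgeR adjusted p = 1.52e-05). Myb, a factor of stem-like CD8+ T cells, was higher in 41BB+ cells at all 3 times, with log2 fold changes of 2.68, 1.53 and 1.04 (edgeR adjusted p = 5.89e-08, 0.00280 and 0.00308).

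Of 13 effector factors, 5 were higher and 3 lower in 41BB+ cells at 0 h, none passed at 24 h in the main edgeR fit and 7 were lower with none higher at 72 h. Of all genes tested, 39.5% passed at 0 h, 2.75% at 24 h and 18.9% at 72 h. At 24 h 1 passed by DESeq2 and 2 by limma voom, where 5.05% and 4.18% of all genes did. By edgeR 2 passed without the filter and 2 with the experiment as a block within each time, where 1.28% and 4.39% of all genes did. The block over all times and the compared groups alone gave 1 each, as did leaving out experiment 3 of 41BB+ cells. Eomes, a T-box factor of memory and cytotoxic cells, had 568 ± 38 CPM in 41BB+ cells and 56.6 ± 4.8 CPM in 41BB- cells at 0 h (log2 fold change 3.31, SE 0.27, edgeR adjusted p = 3.95e-08). Irf4, induced by T cell receptor signaling, was higher in 41BB+ cells at 0 h (log2 fold change 2.26, SE 0.18, edgeR adjusted p = 5.04e-10) and lower at 72 h (log2 fold change -1.54, SE 0.18, edgeR adjusted p = 1.43e-06). Myc, which drives growth of activated cells, had log2 fold changes of 1.53 at 0 h and -1.50 at 72 h (SE 0.12 and 0.14, edgeR adjusted p = 5.05e-11 and 3.29e-08).

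Of the 7 paralogs tested of 10 listed, 1 was higher and 2 lower in 41BB+ cells at 0 h, 1 was higher at 24 h and none passed at 72 h in the main edgeR fit. With the experiment as a block within each time 1 passed at 72 h, as it did without experiment 2 of 41BB+ cells or experiment 1 of 41BB- cells. Of all genes tested, 39.5% passed at 0 h, 2.75% at 24 h and 18.9% at 72 h in either direction, also for the partners below. Runx3, the paralog of Runx1 prominent in CD8+ T cells, had 133 ± 5.3 CPM in 41BB+ cells and 263 ± 22 CPM in 41BB- cells at 0 h, and so was 2.00-fold lower in 41BB+ cells (SE 0.12 on the log2 scale, edgeR adjusted p = 1.35e-07). At 24 h it had 247 ± 13 CPM in 41BB+ cells and 193 ± 25 CPM in 41BB- cells and was the 1 paralog called, as higher in 41BB+ cells (log2 fold change 0.47, SE 0.12, edgeR adjusted p = 0.0275). That call did not hold without experiment 1 or 2 of 41BB+ cells or experiment 1 or 3 of 41BB- cells, with adjusted p between 0.0702 and 0.209. Within 41BB+ cells Runx3 rose with stimulation, to 807 ± 116 CPM at 72 h (log2 fold change 2.73 over 0 h, SE 0.13, edgeR adjusted p = 5.65e-16). Foxp4 differed from Foxp1 in direction at 0 h, with 127 ± 7.6 CPM in 41BB+ cells and 61.6 ± 12 CPM in 41BB- cells (log2 fold change 1.03, SE 0.14, edgeR adjusted p = 8.66e-07). Of the 15 partners and cofactors tested of 16 listed, 4 were higher and 6 lower at 0 h. At 24 h none passed by edgeR and 1 by DESeq2, where 5.05% of all genes did. At 72 h 1 was higher (Mafk) and 2 were lower (Bcor and Hdac3). The calls of Mafk and Hdac3 did not hold in a fit of the compared groups alone (edgeR adjusted p = 0.0622 and 0.0675). That of Bcor did not hold without experiment 2 of 41BB+ cells or experiment 3 of 41BB- cells (edgeR adjusted p = 0.0965 and 0.0556). Tle4, a Groucho corepressor of TCF-1 and Lef1, had 130 ± 9.4 CPM in 41BB+ cells and 248 ± 36 CPM in 41BB- cells at 0 h (log2 fold change -0.95, SE 0.12, edgeR adjusted p = 3.89e-07).

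**Figure D5:**
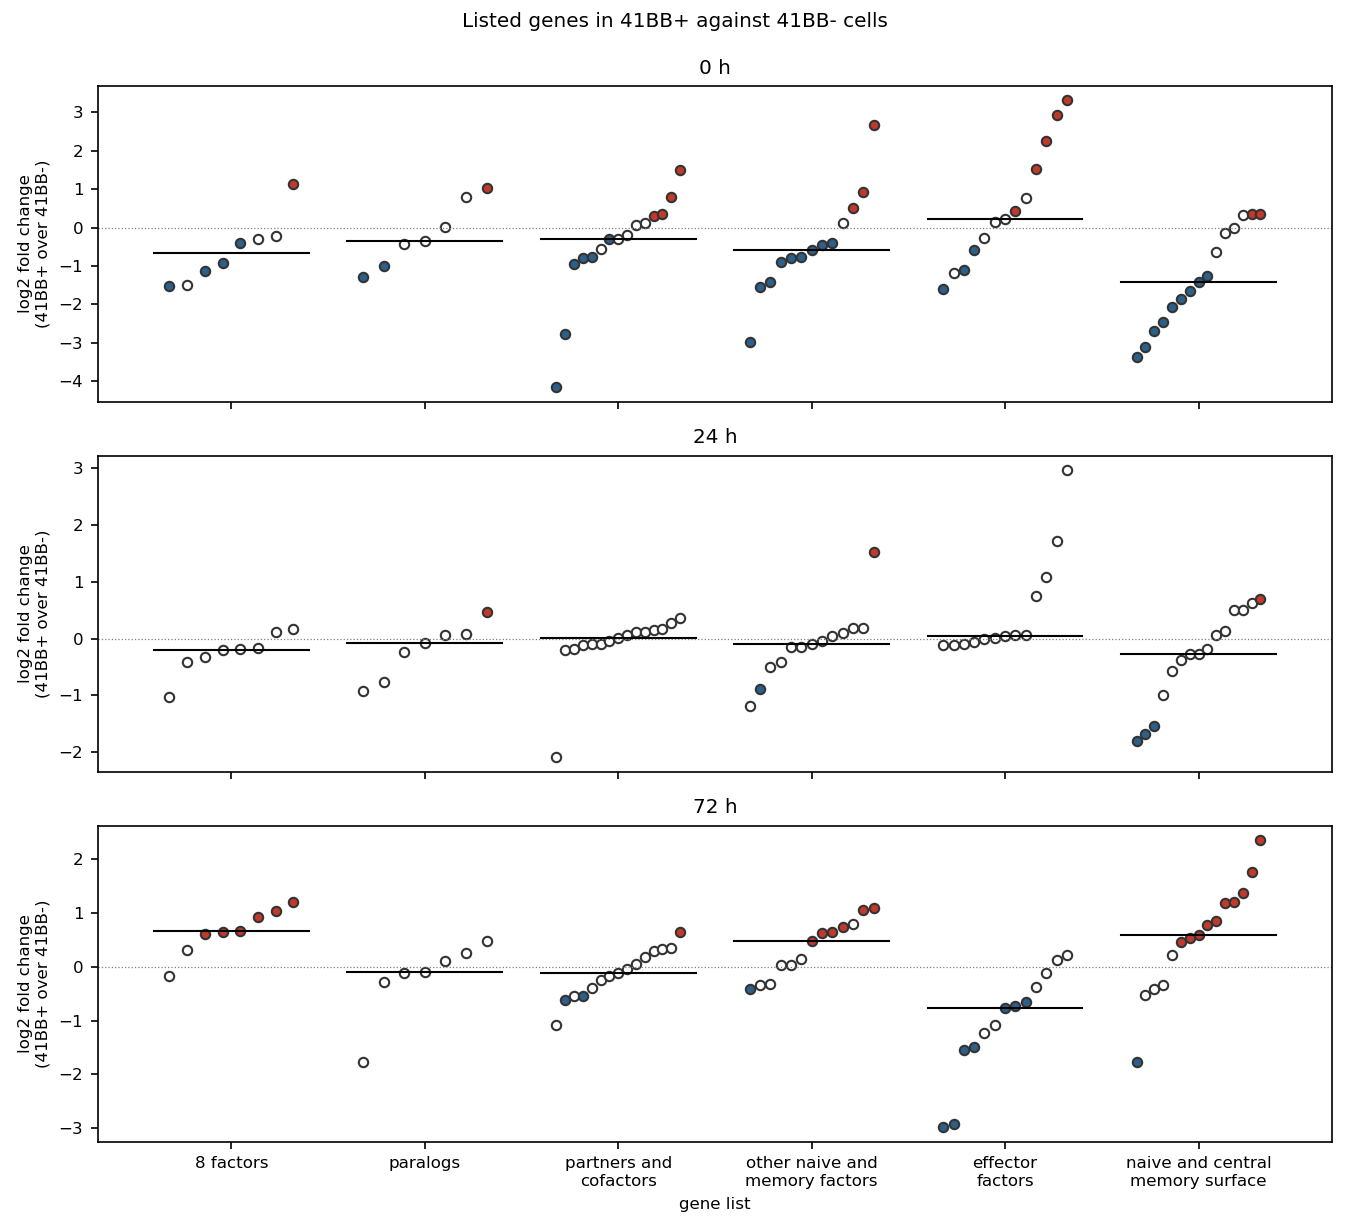
Log2 fold change of 41BB+ over 41BB- cells at 0, 24 and 72 h for the 8 factors and 5 companion lists, each point 1 gene sorted within its list, bars at list medians; red and blue points passed an adjusted p of 0.05 as higher or lower in 41BB+ cells. The surface genes have a median of -1.43 at 0 h and 0.59 at 72 h, and the effector factors one of 0.22 at 0 h and -0.76 at 72 h.

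Marker genes of T cells and of other cells also differed between the groups. The summed level of 6 CD8 T cell markers was 1996 to 2199 CPM in 41BB+ cells at 0 h, against 2837 to 3214 CPM in 41BB- cells, and 5 of the 6 were lower. Of all genes tested, 17.3% were called lower at 0 h. At 72 h the sum was 2110 to 2473 CPM in 41BB+ cells, against 1745 to 2158 CPM in 41BB- cells, and 2 of the 6 were higher, where 6.71% of all genes were called higher. At 24 h the sum was 1102 to 1211 CPM in 41BB+ cells, against 1476 to 1505 CPM in 41BB- cells. All 6 markers were lower at 24 h than at 0 h in both populations, with median log2 fold changes of -0.89 in 41BB+ cells and -1.30 in 41BB- cells, beside -0.95 and -1.43 for the 8 factors. Of all genes tested, 16.5% were called lower in 41BB+ cells and 27.6% in 41BB- cells. At 72 h 5 of the 6 markers were higher than at 24 h in both populations, with medians of 0.99 in 41BB+ cells and 0.73 in 41BB- cells, beside 1.12 and 0.44 for the 8 factors. There 26.2% of all genes were called higher in 41BB+ cells and 22.6% in 41BB- cells. The sum of 12 B cell markers was 110 to 115 CPM in 41BB+ cells at 0 h, against 248 to 272 CPM in 41BB- cells, and 558 to 623 CPM in 41BB+ cells at 72 h, against 435 to 518 CPM in 41BB- cells. Most of it came from Ighm, with 89.7 CPM in 41BB+ cells and 229 CPM in 41BB- cells at 0 h, and 551 CPM in 41BB+ cells and 463 CPM in 41BB- cells at 72 h, while Ms4a1 was below 0.4 CPM in every group mean. Ighm, Ighd and Cd79b were called lower in 41BB+ cells at 0 h. Cd22 went the other way at 0 h, with 7.06 ± 1.8 CPM in 41BB+ cells and 0.626 ± 0.31 CPM in 41BB- cells. It was called higher in 41BB+ cells (log2 fold change 3.41, SE 0.92, edgeR adjusted p = 0.00379). The sums at 0 h were 2.36 to 5.72 CPM in 41BB+ cells, against 0.620 to 0.905 CPM in 41BB- cells, for 5 NK cell markers, and 11.2 to 35.2 CPM in 41BB+ cells, against 6.64 to 11.3 CPM in 41BB- cells, for 6 dendritic cell markers. For 8 myeloid markers they were 7.44 to 10.3 CPM in 41BB+ cells, against 3.24 to 7.24 CPM in 41BB- cells, with Itgam, S100a8 and S100a9 at 0 in both. At 24 h the myeloid sum spread between 1.70 and 78.7 CPM in 41BB+ cells, against 0.638 to 12.3 CPM in 41BB- cells. The sum of 4 plasma cell markers was 32.9 to 34.6 CPM in 41BB+ cells at 0 h, against 15.7 to 31.1 CPM in 41BB- cells, and 20.2 to 31.0 CPM in 41BB+ cells at 72 h, against 46.2 to 48.2 CPM in 41BB- cells. The sum of 4 CD4 and regulatory T cell markers was 3.24 to 6.29 CPM in 41BB+ cells at 0 h, against 1.81 to 3.10 CPM in 41BB- cells, and 30.2 to 53.8 CPM in 41BB+ cells at 72 h, against 47.7 to 54.1 CPM in 41BB- cells. Of these, Foxp3 was called higher in 41BB+ cells at 0 h (log2 fold change 2.40, edgeR adjusted p = 0.0214) and at 72 h (1.84, edgeR adjusted p = 0.0178). Cd40lg was called lower in 41BB+ cells at 72 h (log2 fold change -2.12, edgeR adjusted p = 0.0326). The 6 erythroid and platelet markers summed to at most 5.30 CPM in any library. The part of these markers in the results for the 8 genes was not tested.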

How the data were processed

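Total RNA of sorted CD8+ T cells was sequenced from 18 libraries after stranded library preparation, per the labels' protocols. The deposited table holds whole-number counts per gene, made by the authors with FastQC 0.11.9, Trimmomatic 0.38, HISAT2 2.2.1 and featureCounts, with GRCm38 as the build (per the submitters' processing notes). The sources used here give no strand setting for the counting. Genes that share exons with a member on either strand had at most 6.25% of its counts in any library (Gm37419 and Bcl6, with up to 3 counts). All sample columns were used.

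Gene symbols, lengths and coordinates came from GENCODE M21 (55227 of 55487 genes matched). Counts were tested as deposited with edgeR 4.0.16 (R 4.3.3): filterByExpr by group (minimum count 10, total 15), TMM factors, 1 mean per group over all 18 libraries, robust quasi-likelihood fit, and Benjamini-Hochberg adjustment over the 13150 genes tested, with calls at an adjusted p of 0.05. The common biological coefficient of variation was 0.18. Fold changes are from this fit, CPM are counts over the library total, and correlations use log2 CPM with a prior count of 2. With 3 libraries a group, a permutation test of 1 gene cannot go below 0.1, so the model across all genes was used. The fit was also run on simulated counts in which a small part of the genes was changed. A larger part was called in the comparisons here, so that run does not check the scaling of these data. Sequencing duplicates cannot be recognised without molecular identifiers.

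The test behind the calls is unpaired. The titles number the experiments 1 to 3, and pairing the populations by that number entered only as an alternative fit (the replicate block). Deviations from group means of same-numbered libraries over 12686 autosomal genes had a correlation above 0.1 in 5 of 9 pairs (median 0.107, from -0.043 to 0.243). All pairs above 0.1 were at 24 h or 72 h. At 0 h, where the block within each time added calls, the values were -0.0193, 0.0661 and -0.043. Alternatives were RLE factors, no filter, DESeq2 1.42.0, limma 3.58.1 voom with quality weights, the replicate block over all times or within each time, the compared groups alone, removal of mitochondrial and ribosomal genes and Gm23935, and each library left out. Named genes were all members, the genes most like each in pattern and, of each list, up to 4 with the smallest adjusted p in a comparison. Tnfrsf9 and Cd8a were named as checks of the sort. Ms4a1, Itgam, S100a8 and S100a9 fall outside this rule and were named after their values were seen. The members and lists were chosen with earlier results of these data known.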

Additional observations from a re-analysis of the deposited data

Results flagged for a closer look

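The response to stimulation differed between the populations for most of the 8 genes, by the edgeR test of the interaction (the change in 41BB+ cells minus the change in 41BB- cells, on the log2 scale). For 24 h against 0 h the values were 1.19 for Lef1, 1.10 for Bcl11b, 0.98 for Satb1 and -2.17 for Bcl6. For 72 h against 24 h they were 2.22 for Bcl6, 1.35 for Lef1, 1.32 for Bach2, 0.85 for Foxp1, 0.82 for Satb1 and 0.50 for Tcf7. For 72 h against 0 h they were 2.54 for Lef1, 1.81 for Satb1, 1.24 for Bcl11b, 1.22 for Bach2, 1.06 for Foxp1 and 0.84 for Tcf7. For Bcl6 the interactions of the first and the second interval had opposite signs, and the one over the whole interval was 0.05 (SE 0.41, edgeR adjusted p = 0.937). Groups of 3 libraries were too small for a search for outlying libraries.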

How the results depend on the processing

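Of 1416 recomputed member values, 1340 kept their direction and their side of the threshold, 22 lost a call, 27 gained one and 27 changed sign. The replicate block over all times, which uses the experiment as the pairing, changed none of the 96 member calls, and the block within each time added 8 calls and removed none. That block raised the members called between populations at 0 h to 8 and at 24 h to 1, and all genes called at 24 h to 577, against 361 without it. At 24 h 1 member was called with no filter and 1 in a fit of the compared groups, and 550 genes were called by limma voom. In 41BB+ cells at 24 h against 0 h, the fit of the compared groups called 8 members. Leaving out 1 library gave 181 to 261 genes called between populations at 24 h, and fewer libraries enter those fits.

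The values that changed sign were all near 0 or had a wide error, and none was called. Without a filter Bach2 was -0.02 in 41BB+ cells at 72 h against 24 h. By limma voom Runx1 was -0.08 in 41BB+ cells and -0.02 in 41BB- cells at 72 h against 24 h, and -0.05 in their interaction. With RLE factors and with DESeq2, Tcf7 was -0.01 in 41BB- cells at 72 h against 0 h. With each library left out, the lowest and highest log2 fold changes between populations were -0.0013 and 0.19 for Tcf7 and -0.01 and 0.30 for Bcl11b at 24 h, and -1.11 and 0.87 for Runx1 at 72 h. For 72 h against 24 h they were -0.07 and 0.16 for Bach2 and -0.55 and 0.86 for Runx1 in 41BB+ cells, and -0.62 and 0.71 for Runx1 in 41BB- cells. For Tcf7 in 41BB- cells at 72 h against 0 h they were -0.05 and 0.15. In the interactions they were -0.23 and 0.06 for Bach2 (24 h against 0 h), -0.92 and 1.07 for Runx1 (72 h against 24 h) and -0.12 and 0.40 for Bcl6 (72 h against 0 h). The cause was not tested.

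For the companion lists the same alternatives were added after seeing the data: of 574 recomputed values, 14 for each of 41 called pairs of a gene and a comparison (30 genes), 549 kept the call and 25 lost it, and none changed sign. Counts of 11 to 225 per library limit the precision for Bcl6. The 48 group levels per length moved by more than their SD in 31 cases with the longest transcript and in 47 with TMM-scaled counts per kilobase, which are on another scale. Relations between groups changed too. Foxp1 in 41BB+ cells had 30.5 ± 3.5 at 0 h and 28.2 ± 0.68 at 72 h by TPM. By TMM-scaled counts per kilobase it had 52.1 ± 1.6 and 64.3 ± 4.2. At 24 h every member had a lower mean TPM in 41BB+ than in 41BB- cells, such as Satb1 with 6.07 ± 0.77 against 9.03 ± 0.43.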
